A study of Mus musculus with 20 samples.

Results

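*Meox2* and *Foxc2* are 2 transcription factor genes of mouse nephron progenitor cells (NPCs), found by matching their symbols to the identifiers in the authors' gene tables. They are ENSMUSG00000036144 (*Meox2*) and ENSMUSG00000046714 (*Foxc2*), 2 of 31130 genes in the expression table and of the 4316 that these tables pair with a symbol. The data are bulk mRNA sequencing of NPCs isolated from kidneys at embryonic day 16.5, 20 libraries in 8 groups. All groups came from mice that carry Cas9-eGFP, were grown in nephron progenitor expansion medium (NPEM), and were lipofected with single guide RNAs (sgRNAs) together with mCherry mRNA. After a knockout period of 48 h, cells were kept for 24 h in 1.25 µM (low CHIR) or 5 µM (high CHIR) of CHIR99021, and mCherry+ cells were sorted for RNA. CHIR99021 inhibits the kinase GSK3β, so that β-catenin is no longer marked for degradation.

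CTRL cells received an sgRNA against GFP and had 3 libraries in each CHIR condition. β-catenin KO cells received sgRNAs against *Ctnnb1* and also had 3 libraries in each. α-catenin KO (sgRNAs against *Ctnna1*) had 2 libraries in each CHIR condition, replicates 1 and 3. QCKO, the quadruple knockout of the cadherin genes *Cdh2*, *Cdh3*, *Cdh4* and *Cdh11*, had 2 in each, replicates 2 and 3. A replicate number stands for 1 date in the sample titles, which do not say what the date is of, and is shared by the knockouts and by both CHIR conditions. Each library is a sorted population edited in culture, not a clone, so cells with no disrupted allele can be present.

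*Meox2* encodes a homeodomain factor first known from the somites and from limb muscle, and *Foxc2* a forkhead factor of paraxial and kidney mesenchyme, lymphatic vessels and podocytes. Both are transcribed in the cap mesenchyme, the progenitor layer that caps the tips of the ureteric bud. When Wnt signals stabilize β-catenin, it joins Lef/Tcf factors on DNA, part of the progenitors switch on nephrogenic genes such as *Wnt4*, and the genes of the uncommitted state are switched off as a renal vesicle forms.

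The question behind the design is whether this change of program needs β-catenin itself or the adhesion complexes in which β-catenin links cadherins to α-catenin. Because the main result below turns on β-catenin KO, its 4 guides are printed here from the study's oligonucleotide list, 5′ to 3′, with the 10 bases next to the PAM in capitals.
Ctnnb1 sgRNA1, listed for exon 2: atgagcagcgTCAAACTGCG
Ctnnb1 sgRNA3, listed for exon 3: agccaagcgcTGGACATTAG
Ctnnb1 sgRNA5, listed for exon 3: gagattatgcAGTGTCGTGA
Ctnnb1 sgRNA6, listed for exon 6: gagattatgcAGTGTCGTGA
The list gives sgRNA5 and sgRNA6 the same letters under different exons, so it holds 3 distinct sequences.

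In RefSeq's annotation of GRCm38.p6, *Meox2* lies on chromosome 12 from 37108540 to 37179534 and *Foxc2* on chromosome 8 from 121116171 to 121118895. The 250 bases before the *Meox2* start, chr12:37108290-37108539 on the + strand, are shown because *Meox2* is the member whose level changed most. No entry for *Foxc2* was used. Capitals mark the match to a TATA box (TATAAA, either strand), here as its reverse complement.
Meox2, 250 bases before the start: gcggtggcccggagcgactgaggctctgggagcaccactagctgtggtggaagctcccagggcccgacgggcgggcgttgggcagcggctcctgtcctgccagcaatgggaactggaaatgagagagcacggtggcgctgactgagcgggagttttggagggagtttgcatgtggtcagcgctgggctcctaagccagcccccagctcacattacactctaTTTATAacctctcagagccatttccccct
TATAAA occurs on either strand in 12.4% of 32851 RefSeq windows of this kind. Searched on both strands, this window holds 0 matches to the Lef/Tcf letters ATCAAAG (in 3.21% of the windows), 0 to CAAAG, which is contained in them (48.6%), and 0 to the homeodomain letters TAATTA (4.84%). These counts say only which letters the window holds.

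Recovered reads per library ranged from 18124772 to 28472412, with a median of 21449823. The label NPC was looked at through *Six2*, *Cited1*, *Eya1*, *Osr1* and *Wt1*, whose summed level ranged from 11147 to 15242 normalized counts in CTRL low CHIR. In the same libraries *Meis1*, *Meis2* and *Nr2f2*, listed as stroma markers, summed to 15764 to 25266, so the sum alone does not settle the label. Of the targeted genes, *Ctnna1* in α-catenin KO was at 40.4% of the CTRL mean in low and 47.4% in high CHIR. *Cdh11* in QCKO was at 50.0% and 40.2%, and *Cdh2* at 63.5% and 77.0% with libraries that overlapped those of CTRL, while *Cdh3* and *Cdh4* in QCKO were at 95.2% to 127% of CTRL. An edited transcript can still be counted, and the tables used here pair no identifier with *Ctnnb1*, so β-catenin KO was not checked in this way. The percentages above are of RNA and do not measure loss of protein. By immunofluorescence the paper reports that Cdh2 and Cdh11 protein was no longer detected and that most Cdh3, Cdh4 and α-catenin protein was removed. It reports similar efficiency when cadherin guides were combined. In β-catenin KO the libraries of replicates 2 and 3 stood apart in low CHIR. *Wnt4* was at 831 and 634 normalized counts there, against 30.1 in replicate 1 and 41.1 to 72.6 in CTRL low CHIR. For both members, the comparisons of β-catenin KO with CTRL in high CHIR and in response are therefore also given for replicate 1 alone, and the self-renewal and induction genes by their sum in each library. Each β-catenin KO group is then 1 library with no replicate, the spread comes wholly from the other groups, and the lone library is assumed to vary as they do.

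In CTRL, *Meox2* was at 3028, 1730 and 1984 normalized counts in low CHIR (replicates 1 to 3) and at 47.6, 8.54 and 36.8 in high CHIR. A normalized count is the number of reads on a gene divided by a size factor for the library's depth. The lowest low CHIR library lay far above the highest high CHIR library, and the mean went from 2247 ± 688 to 31.0 ± 20.2 (SD, n = 3 each), so that 1.38% of the low CHIR level was left.

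*Foxc2* was at 47.3, 60.7 and 83.6 normalized counts in CTRL low CHIR and at 2.27, 16.0 and 5.49 in CTRL high CHIR. Its mean went from 63.9 ± 18.4 to 7.92 ± 7.19 (SD, n = 3 each), 12.4% of the low CHIR level, and the conditions did not overlap. In high CHIR these values rest on 2, 15 and 7 reads, and replicate 2, the library with the most *Foxc2* reads, had the fewest *Meox2* reads, 8. Between libraries of the same date *Foxc2* was 20.9 times higher in low than in high CHIR for replicate 1 (exact 95% counting interval 5.50 to 177), 3.79 times for replicate 2 (2.11 to 7.21) and 15.2 times for replicate 3 (7.06 to 39.1). Counting intervals cover counting error only, and PCR copies of a molecule are counted as reads. The table has no gene lengths, so the levels of *Meox2* and *Foxc2* were not set against each other.

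**Figure D1:**
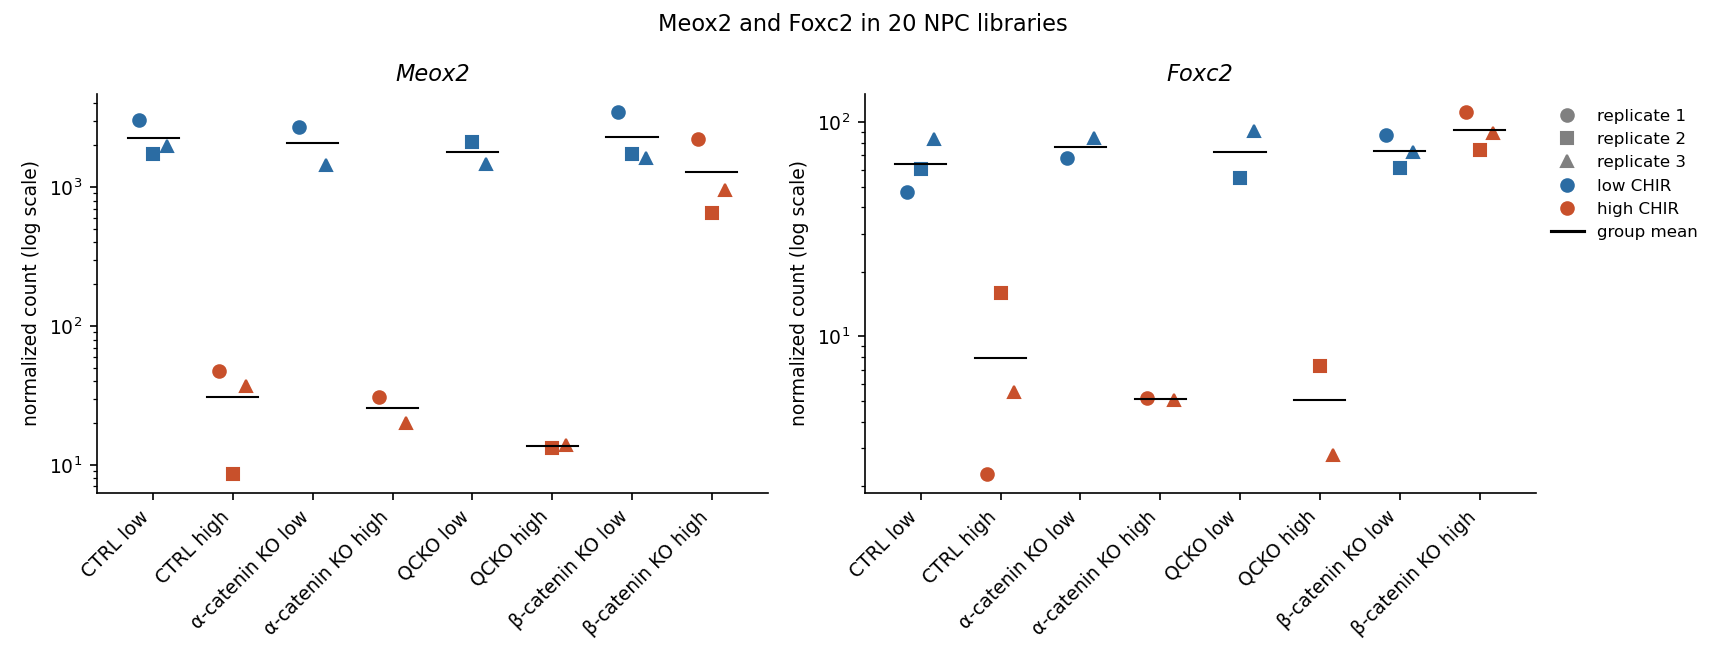
Normalized counts (log scale) of *Meox2* (left) and *Foxc2* (right) in each of the 20 libraries, by knockout and CHIR condition. Points are libraries, their shapes the dates (replicates 1 to 3), and bars the group means. In CTRL, QCKO and α-catenin KO, high CHIR libraries lie below all low CHIR libraries, between 8.54 and 47.6 for *Meox2* and between 2.27 and 16.0 for *Foxc2*, while those of β-catenin KO lie between 650 and 2233 and between 74.3 and 112.

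On the log2(normalized count + 1) scale, limma put the CTRL difference between high and low CHIR at −6.39 for *Meox2* (standard error 0.50) and −3.15 for *Foxc2* (standard error 0.55). A gene was called when its adjusted p was below 0.05 and it moved by more than 0.5 on the log2 scale in either direction, and 5.82% of the 16516 genes tested were lower in high CHIR in CTRL. Nothing is read from this share, since both symbols come from the authors' table of genes that differ between these same CTRL libraries, and the CTRL values are therefore a description. By size of the log2 fold change *Meox2* was the 6th most negative gene of 16516 and *Foxc2* the 125th.

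The α-catenin KO and QCKO libraries took no part in that table. In α-catenin KO, *Meox2* was at 2725 and 1431 normalized counts in low CHIR (replicates 1 and 3) and at 30.9 and 20.2 in high CHIR. In QCKO it was at 2118 and 1477 (replicates 2 and 3) and at 13.3 and 14.03. In both knockouts *Meox2* fell into the range of CTRL high CHIR, with a log2 fold change of −6.25 in α-catenin KO (standard error 0.62, limma adjusted p = 7.3e-05) and of −6.92 in QCKO (standard error 0.62, limma adjusted p = 3.6e-05).

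*Foxc2* was at 68.0 and 84.9 normalized counts in α-catenin KO low CHIR and at 5.15 and 5.04 in high CHIR. In QCKO it was at 54.7 and 90.6 and at 7.24 and 2.81. These high CHIR values rest on 3 to 6 reads per library. *Foxc2* fell by 3.66 on the log2 scale in α-catenin KO (standard error 0.67, limma adjusted p = 0.007) and by 3.67 in QCKO (standard error 0.67, limma adjusted p = 0.0061). Leaving out 1 library could end either call of *Foxc2*, with 1 library then left in that group, assumed to vary like the other groups. In α-catenin KO it did not pass without low CHIR replicate 1 (−3.82). It also did not pass without low CHIR replicate 3 (−3.50, limma adjusted p = 0.053) or without high CHIR replicate 3 (−3.64, limma adjusted p = 0.056). In QCKO limma's adjusted p was 0.075 without low CHIR replicate 3 (−3.31) and 0.082 without high CHIR replicate 3 (−3.12). In the QCKO pair of replicate 3, where high CHIR held 3 reads, the low CHIR level was 32.3 times higher, with a counting interval of 10.7 to 160. Both members were called lower in high CHIR in both knockouts, beside 1.99% of all genes tested in α-catenin KO and 2.31% in QCKO.

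Neither member's response in α-catenin KO or QCKO differed from that in CTRL by the test of the difference, and the intervals were wide. For *Meox2* the difference of responses was 0.14 in α-catenin KO (95% interval −1.59 to 1.87) and −0.52 in QCKO (−2.25 to 1.21). For *Foxc2* it was −0.51 (−2.39 to 1.37) and −0.52 (−2.40 to 1.35). The adjusted p from limma was 1 for all 4 differences. Of all genes, 0% were called in either comparison, while 258 and 213 had an unadjusted p under 0.05 in limma, and edgeR and DESeq2 also called 0.

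**Figure D2:**
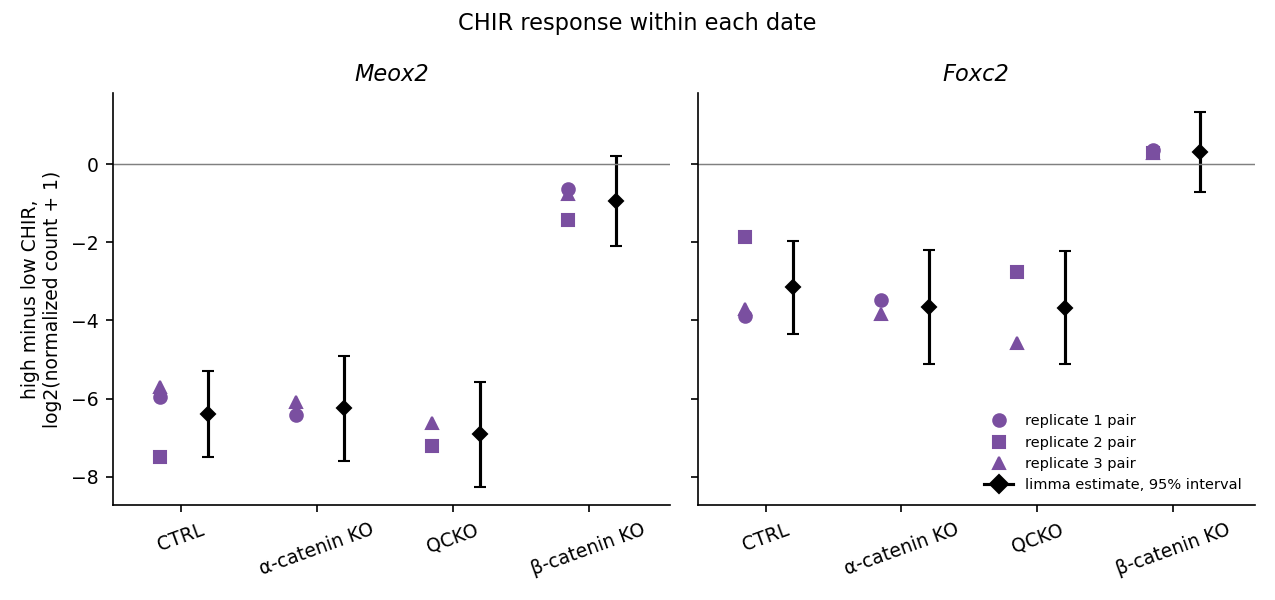
High minus low CHIR difference in log2(normalized count + 1) for *Meox2* (left) and *Foxc2* (right) in the 4 knockout conditions. Purple points are pairs of libraries of 1 date and black diamonds the limma estimates with 95% intervals. All pairs of CTRL, QCKO and α-catenin KO lie below 0, from −7.50 to −5.71 for *Meox2* and from −4.59 to −1.86 for *Foxc2*, and the β-catenin KO pairs lie above all of them, from −1.42 to −0.64 for *Meox2* and from 0.28 to 0.36 for *Foxc2*.

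In β-catenin KO the picture was different. *Meox2* was at 3494, 1743 and 1623 normalized counts in low CHIR (replicates 1 to 3) and at 2233, 650 and 953 in high CHIR. The conditions overlapped, and 55.9% of the low CHIR mean was left. Within each date *Meox2* was still lower in high CHIR, at 63.9%, 37.3% and 58.7% of its low CHIR partner. Counting intervals of all 3 pairs excluded equality, with low CHIR 1.48 to 1.66, 2.44 to 2.95 and 1.58 to 1.83 times higher. The limma difference of −0.94 (95% interval −2.09 to 0.20, adjusted p = 1), which does not pair by date, was not called.

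*Foxc2* was at 87.0, 61.0 and 72.9 normalized counts in β-catenin KO low CHIR and at 112, 74.3 and 89.3 in high CHIR. It did not fall in any date, with high CHIR at 129%, 122% and 123% of the low CHIR partner, and the limma difference of 0.31 (95% interval −0.71 to 1.33, adjusted p = 1) was not called. Counting intervals of all 3 pairs included equality. In this comparison 0.018% of 16691 genes tested were called, neither member among them.

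Set against CTRL in high CHIR, β-catenin KO held far more of both transcripts, and the groups did not overlap. *Meox2* was 46.9, 76.0 and 25.9 times its CTRL level of the same date, a log2 difference of 5.42 (standard error 0.54, limma adjusted p = 1.7e-05). *Foxc2* was 49.4, 4.64 and 16.3 times its CTRL level, where the first ratio has 2 CTRL reads below it, a log2 difference of 3.69 (standard error 0.48, limma adjusted p = 0.00021). Both members were among the 7.67% of genes called higher in this comparison. The unreplicated replicate 1 of β-catenin KO alone differed from CTRL by 6.43 for *Meox2* and 3.99 for *Foxc2*.

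The CHIR response itself differed between β-catenin KO and CTRL by 5.45 for *Meox2* (95% interval 3.83 to 7.06, limma adjusted p = 0.0024) and by 3.46 for *Foxc2* (2.02 to 4.90, limma adjusted p = 0.024). In this test 0.533% of genes were called in that direction, both members included. The CTRL side of these differences, in high CHIR and in response, is the contrast through which both genes have a symbol. With the mean of α-catenin KO and QCKO in place of CTRL, the difference of response was 5.64 for *Meox2* (95% interval 4.13 to 7.15, limma adjusted p = 0.00074) and 3.98 for *Foxc2* (2.63 to 5.32, limma adjusted p = 0.0056), where 0.677% of genes were called higher. In high CHIR it was 5.84 and 3.97 (limma adjusted p = 4.8e-06 and 7.3e-05), where 4.06% were. Against CTRL, the call for *Meox2* held in all alternatives tried. That for *Foxc2* was lost when only the groups compared were fitted (3.46, limma adjusted p = 0.086). From β-catenin KO replicate 1 alone the difference was 5.75 for *Meox2*, and for *Foxc2* it was 3.51 and was not called (limma adjusted p = 0.32), with 1 library in each β-catenin KO group and the spread of the other groups in its place. It was also lost without any 1 of 7 libraries, replicate 2 or 3 of CTRL low CHIR (3.48 and 3.25), replicate 3 of CTRL high CHIR (3.39), replicate 2 or 3 of β-catenin KO low CHIR (3.33 and 3.46) and replicate 1 or 3 of β-catenin KO high CHIR (3.31 and 3.47), with limma adjusted p of 0.057 to 0.08.

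Within β-catenin KO, the library with the most *Meox2* in high CHIR had the least *Wnt4*. Replicate 1 had the highest *Meox2* (2233) and *Foxc2* (112) and *Wnt4* at 252 normalized counts. Replicates 2 and 3 had less *Meox2* and had *Wnt4* at 2387 and 1200, against 4156 to 5401 in CTRL high CHIR. Replicate 1 also had the most *Meox2* in every other group that holds it, among them CTRL high CHIR, where its *Wnt4* was 5286. A relation between these levels was not tested and cannot be told apart from the date. In bulk RNA, fewer cells that transcribe a gene and less RNA per cell cannot be told apart.

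In low CHIR no knockout differed detectably from CTRL in either member. For *Meox2* the log2 differences were −0.14 in α-catenin KO, −0.30 in QCKO and −0.02 in β-catenin KO, and for *Foxc2* 0.28, 0.18 and 0.23. The 95% intervals lay between −1.53 and 1.12 for *Meox2* and between −1.15 and 1.61 for *Foxc2*, and limma's adjusted p was 1 throughout. Called genes made up 0% of those tested in α-catenin KO, 0.00605% in QCKO and 0.0659% in β-catenin KO. In α-catenin KO 109 genes had an unadjusted p under 0.05. The count there was 0 by edgeR and 1 by DESeq2.

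In high CHIR, α-catenin KO and QCKO also gave no call against CTRL. *Meox2* differed by 0.00 in α-catenin KO (95% interval −1.22 to 1.22) and by −0.83 in QCKO (−2.05 to 0.40). *Foxc2* differed by −0.22 (−1.55 to 1.10) and −0.35 (−1.67 to 0.98). Within dates *Meox2* was 0.649 and 0.548 times CTRL in α-catenin KO, and 1.55 and 0.381 times in QCKO. *Foxc2*, on few reads, was 2.27 and 0.919 times CTRL in α-catenin KO, and 0.452 and 0.511 times in QCKO. The CTRL mean in the fit holds every replicate, of which α-catenin KO lacks replicate 2 and QCKO replicate 1. The called share was 0% in each, with 928 and 1444 genes at an unadjusted limma p under 0.05. edgeR called 0 genes in both, and DESeq2 called 4 and 7.

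Ordered by mean log2 level, the 8 groups fell into an upper set of 5 and a lower set of 3 for both members. For *Meox2* the low CHIR groups came first, CTRL at the top, then β-catenin KO, then α-catenin KO, then QCKO. β-catenin KO in high CHIR followed and, after a step of 5.42 on the log2 scale, α-catenin KO, CTRL and QCKO in high CHIR. For *Foxc2*, β-catenin KO in high CHIR stood first, followed by α-catenin KO, β-catenin KO, QCKO and CTRL in low CHIR, and the step of 3.15 came before CTRL, α-catenin KO and QCKO in high CHIR. In both orders the groups on either side of that step did not overlap, with an exact permutation p of 0.1, the smallest that 3 libraries against 3, or 2 against 3, can give (two-sided). The groups were sorted by these same values. For *Foxc2* the step lies between CTRL low and CTRL high CHIR, the contrast through which it has a symbol. The steps are therefore a description, and nothing is read from their p. All other neighbours overlapped in range, with exact permutation p of 0.4 or more.

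The relative fall of the members was compared within libraries. Over CTRL, α-catenin KO and QCKO, high CHIR took *Meox2* down by 3.03 more on the log2 scale than *Foxc2*, a factor of 8.14, as a description that includes CTRL. Over α-catenin KO and QCKO alone it was 2.92, where a two-sided exact permutation test of CHIR labels within each knockout gave p = 0.056, the smallest that its 36 arrangements can give. The difference was 3.24 in CTRL and also in QCKO, and 2.59 in α-catenin KO. In β-catenin KO it was 1.26, where 20 arrangements cannot give less than the p of 0.1 found. The few *Foxc2* reads in high CHIR limit its precision, and over CTRL and both adhesion knockouts with other pseudocounts or with any 1 library left out it stayed between 2.58 and 3.42.

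All 5 other self-renewal genes listed beside the members were called lower in high CHIR in CTRL and in both adhesion knockouts. These genes are *Six2*, which keeps progenitors uncommitted, *Cited1*, a transcriptional coregulator of the same cells, *Eya1*, a phosphatase and partner of *Six2*, *Osr1*, an early factor of kidney mesoderm, and *Wt1*, which is needed for kidney formation and later for podocytes. They were listed with results of these libraries known, so their count is not independent evidence of a direction. Their median log2 fold change was −3.73 in CTRL, −3.54 in α-catenin KO and −3.35 in QCKO. For all genes tested, in the same order, the medians were −0.006, 0.012 and −0.005, and 5.82%, 1.99% and 2.31% were called lower. *Meox2* kept the smallest share of its low CHIR mean of these 7 genes in each of the 3 conditions (1.38%, 1.23% and 0.760%). *Foxc2*, at 12.4%, 6.67% and 6.92%, lay above *Osr1* (4.03%, 4.82% and 3.83%) and below *Wt1* (24.8%, 19.2% and 19.7%).

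In β-catenin KO, none of these 5 genes was called between high and low CHIR, with a median of −0.87 (0.018% of all genes called, median 0.02), and all 5 were higher than CTRL in high CHIR with a median of 2.08 (7.67% of all genes, median 0.02). Their summed level went from 17238 to 8059 normalized counts in replicate 1, from 9286 to 4398 in replicate 2 and from 10178 to 5274 in replicate 3. The CHIR response of 3 of them differed from CTRL, beside 0.533% of all genes, *Osr1* by 4.48, *Six2* by 3.33 and *Wt1* by 1.74 (limma adjusted p = 0.0006, 0.00065 and 0.0051). For *Cited1* (2.09) and *Eya1* (1.60) the adjusted p was 0.079 and 0.16. High CHIR levels in β-catenin KO were 94.8% of low CHIR for *Osr1*, 83.4% for *Wt1*, 56.2% for *Six2*, 54.8% for *Eya1* and 31.2% for *Cited1*, with *Meox2* at 55.9% and *Foxc2*, the only one of the 7 above its low CHIR mean, at 125%.

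**Figure D3:**
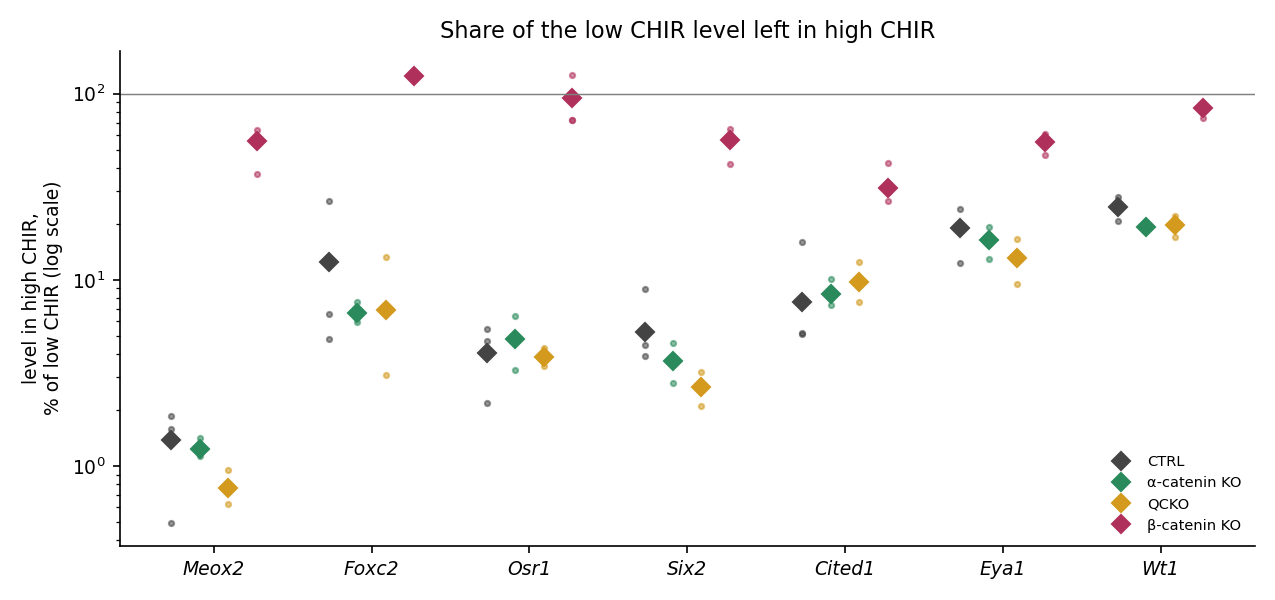
Level in high CHIR as a percentage of low CHIR (log scale) for *Meox2*, *Foxc2* and 5 other self-renewal genes, by knockout (colours). Diamonds are ratios of group means, small points ratios within a date, and the line marks 100%. *Meox2* lies lowest in CTRL, α-catenin KO and QCKO (0.760% to 1.38%), and in β-catenin KO all 7 genes lie between 31.2% and 125%.

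A wider list of 30 cap mesenchyme genes had identifiers for 15. For every list here, a gene has an identifier only if the authors' tables list it as changed between some of these libraries, so counts of called genes are a description and the share of all genes is not their baseline. In CTRL 10 of the 15 were lower and 4 higher in high CHIR (5.82% and 4.84% of all genes tested). In α-catenin KO 9 were lower and 3 higher (1.99% and 2.4% of all genes). In QCKO 8 were lower and 2 higher (2.31% and 2.62% of all genes). *Crym*, a thyroid hormone binding protein, and *Tmem100*, a membrane protein, had log2 fold changes of −4.02 and −4.16 in α-catenin KO. The difference of response between β-catenin KO and CTRL was called for these 2 (3.97 and 3.40, limma adjusted p = 0.00043 and 0.018), beside 0.533% of all genes, and not for the other 13, which ran from −3.59 (*Bmp7*) to 3.43 (*Rspo1*). In β-catenin KO none of the 15 was called between CHIR conditions, and in high CHIR 8 were higher and 1 (*Pax2*, a factor of kidney epithelium and its precursors) lower than in CTRL, where 7.67% of all genes were higher and 2.86% lower. The 8 induction genes the study names (*Lhx1*, *Wnt4*, *Emx2*, *Lef1*, *Ovol1*, *Jag1*, *Cdh4* and *Cdh3*) moved the other way. All 8 rose in CTRL, in QCKO and with α-catenin lost, where 4.84%, 2.62% and 2.4% of all genes were higher. In β-catenin KO none was called, with log2 fold changes up to 2.56 (*Lhx1*), 1.89 (*Jag1*) and 1.82 (*Wnt4*). The libraries behind these values were unlike. The summed level of the 8 genes went from 4715 normalized counts in low CHIR to 3934 in high CHIR in replicate 1, from 5111 to 12865 in replicate 2 and from 7205 to 12962 in replicate 3. The difference of response between β-catenin KO and CTRL was called for 0 of the 8, at −4.51 to −1.58 (limma adjusted p = 0.13 to 0.61).

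Of the forkhead family, 11 genes had identifiers and 8 passed the filter. In CTRL *Foxc2* (−3.15), *Foxd2os* (−1.46), *Foxp1* (−1.27), *Foxj2* (−1.13) and *Foxo3* (−0.90) were lower in high CHIR, 5 of the 8 beside 5.82% of all genes. In α-catenin KO 4 of the 8 were lower and in QCKO 5, *Foxc2* among them, beside 1.99% and 2.31%. *Foxd2os* is an antisense transcript and not a factor gene, and its reads cannot be told from those of its partner unless strand was used in counting. *Foxc1*, the close relative of *Foxc2* that shares much of its role in mesoderm, had a log2 fold change of −0.95 in CTRL (limma adjusted p = 0.064), −1.53 in α-catenin KO (0.035) and −1.91 in QCKO (0.0086) by limma. In β-catenin KO it was −0.03, and its response there did not differ by test from that in CTRL (0.92, limma adjusted p = 0.57). Against CTRL in high CHIR, β-catenin KO was higher in 4 of the 8, *Foxc2*, *Foxd2os* (1.66), *Foxp1* (1.12) and *Foxj2* (1.09), beside the 7.67% of all genes given above. *Meox2* was the only Meox gene with an identifier. Of 16 paraxial mesoderm factors only *Foxc1* and *Uncx*, a homeobox gene of the somites, had one, and *Uncx* was called higher in CTRL high CHIR (1.61, limma adjusted p = 0.02). It was at 0.96 in α-catenin KO and 1.08 in QCKO, not called, and its response did not differ by test from that in CTRL in any knockout (limma adjusted p = 1, 1 and 0.5).

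Nearness of profile was measured as the root-mean-square difference of gene-centred log2 values over the 20 libraries, among 3938 genes with a symbol and a mean normalized count of at least 10. Nearest to *Meox2* were *Nell1*, a secreted glycoprotein gene (0.70), *BC030500* (0.89), *Fgf1*, a fibroblast growth factor (0.93), *Gm26902* (0.98) and *CJ186046Rik* (0.99), set against a spread of 3.10 in *Meox2* itself. These genes were also the 5 nearest among all 16690 genes. *Nell1* went from a mean of 2837 normalized counts in CTRL low CHIR to 53.5 in high CHIR, and was at 1549 in β-catenin KO high CHIR. Nearest to *Foxc2* were *Rspo1*, a secreted enhancer of Wnt signalling (0.52), *Sncaip*, the synphilin gene (0.63), *Tafa1*, a small secreted protein (0.67), *Gm38414* (0.68) and *Fat3*, an atypical cadherin (0.69), with a spread of 1.77 in *Foxc2*. *Rspo1* was at 130 normalized counts in CTRL low CHIR, 17.2 in CTRL high CHIR and 115 in β-catenin KO high CHIR. The members were not among each other's nearest genes by this measure. It counts the size of a change as well as its shape, and their spreads, 3.10 and 1.77, differ. The ranks that follow therefore do not say that the shapes of the profiles differ. *Foxc2* was 81st nearest to *Meox2* and *Meox2* 1324th nearest to *Foxc2*, at a difference of 1.67. Symbols exist here only for genes in the authors' tables of changed genes, and the libraries share their knockouts and dates, so nearness is a description.

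**Figure D4:**
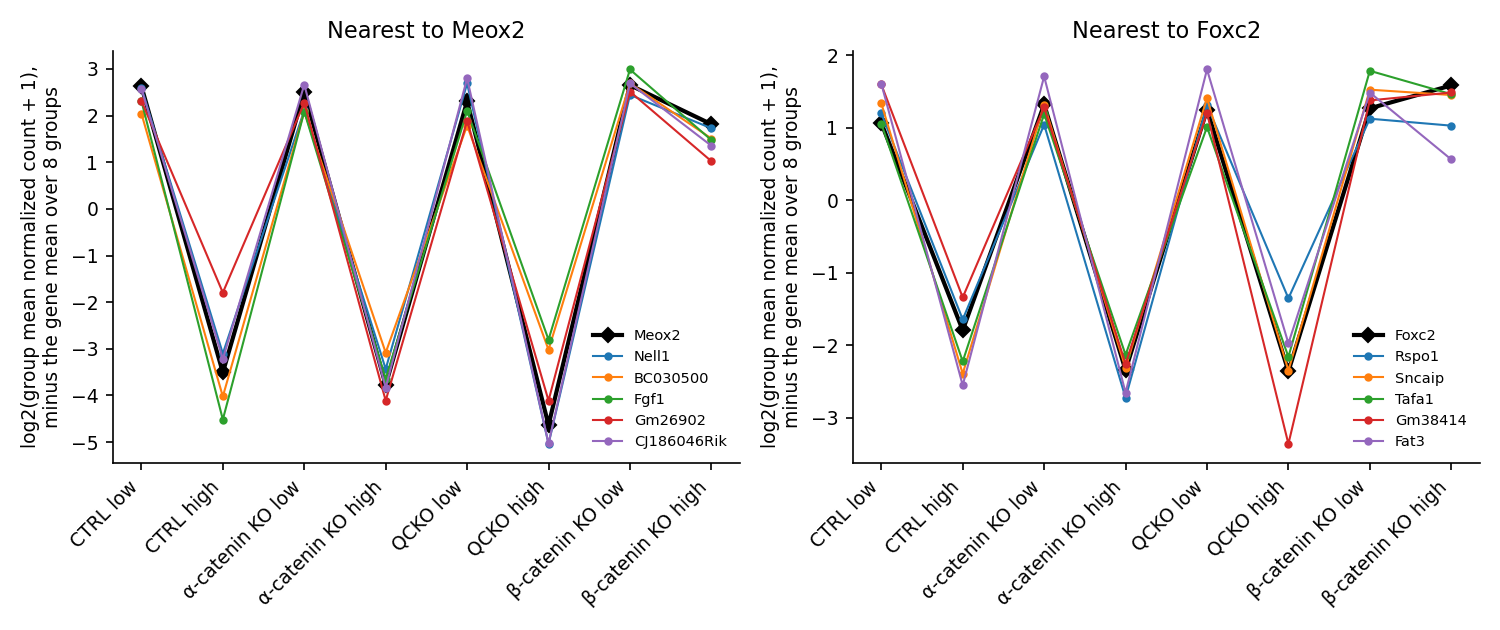
Group profiles of *Meox2* (left, black) and *Foxc2* (right, black) with the 5 genes nearest to each, as log2(group mean normalized count + 1) minus the gene's mean over the 8 groups. Lines join the groups only to guide the eye. All lines are lowest in high CHIR of CTRL, QCKO and α-catenin KO and higher in β-catenin KO, and those near *Foxc2* span less than those near *Meox2*.

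Markers of other cell types that a kidney sort could hold were looked up beside these results. Few have identifiers here, 3 of 12 for podocytes, 2 of 14 for endothelium, 3 of 14 for stroma and 6 of 13 for ureteric epithelium, and none of those was at 0 throughout a group. Those few have identifiers through the same tables of changed genes, so their counts are a description too. The summed podocyte markers (*Clic5*, *Tcf21* and *Plce1*) were at 3790 to 4828 normalized counts in CTRL low CHIR, 530 to 1213 in CTRL high CHIR and 1734 to 2065 in β-catenin KO high CHIR. The genes behind this sum did not move alike, as given below. The stroma markers (*Meis1*, *Meis2* and *Nr2f2*), at 15764 to 25266 in CTRL low CHIR, were at 6415 to 8284 in CTRL high CHIR and 8964 to 13468 in β-catenin KO high CHIR. The endothelium markers (*Tek* and *Plvap*) were at 340 to 452 in CTRL low CHIR and 95.1 to 231 in high CHIR, and the ureteric epithelium markers overlapped, at 320 to 1457 and 891 to 1078. In the other knockouts the ureteric sum was higher in high CHIR, at 429 to 1211 in low and 1289 to 2322 in high CHIR for α-catenin KO and at 640 to 878 and 1838 to 2121 for QCKO. The endothelium sums overlapped there, at 338 to 445 in low and 146 to 431 in high CHIR for α-catenin KO and at 371 to 408 and 266 to 402 for QCKO. In β-catenin KO high CHIR the endothelium and ureteric sums were 159 to 220 and 593 to 1156. By gene, all 3 stroma markers were lower in CTRL high CHIR, where 5.82% of all genes were lower and 4.84% higher. Of the podocyte markers in CTRL *Plce1* was called higher (1.82) and *Tcf21* lower (−2.82), and *Clic5* was not called (−1.34). Of the endothelium markers *Tek* was higher (5.88) and *Plvap* lower (−3.86), and of 5 ureteric markers tested 2 were higher. β-catenin KO in high CHIR was called higher than CTRL in 2 of the 3 podocyte markers, 1 of the 2 endothelium markers, and none of the others, beside 7.67% of all genes. The part of other cells in the members' levels was not tested.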

How the data were processed

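The members and gene lists were chosen with earlier results of these data known. The authors deposited normalized counts, a signal per gene made by dividing gene counts by a size factor per library; the submitters' processing notes name bcl2fastq, STAR, Subread with featureCounts, Salmon and DESeq2 and the builds GRCm38, mm10 and GRCh38, and which step used which is not given in the sources used here. The authors' 7 comparison tables were used only to pair identifiers with symbols; their fold changes and p-values were not used. Log2(normalized count + 1) values of genes with a mean of at least 10 were fitted with limma 3.58.1 (R 4.3.3, 1 mean per group, variance trend, Benjamini-Hochberg adjustment), over 14 libraries without β-catenin KO or all 20 where it was compared. Reads, recovered as whole multiples of the smallest step, were tested with edgeR 4.0.16 and DESeq2 1.42.0 as alternatives. The fits were tested on simulated data.

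Genes named were the members, their families, the listed genes and 5 nearest profiles each. Replicate numbers stand for a date in the titles, whose kind is not given, and libraries were paired by it; deviations from the group mean correlated between the CHIR conditions of a date at 0.0474 to 0.721. The fit without a block for date is the one reported. Replicates carry different dates and are called biological by the study.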

Additional observations from a re-analysis of the deposited data

Results flagged for a closer look

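The change between high and low CHIR differed between β-catenin KO and CTRL by the test of the difference for both members, *Meox2* by 5.45 and *Foxc2* by 3.46 on the log2 scale. The CTRL side is the contrast through which both have a symbol. With the mean of α-catenin KO and QCKO in place of CTRL, the differences were 5.64 and 3.98. Against CTRL, the *Foxc2* call was lost in 9 of 22 alternatives. The test against CTRL also passed for *Osr1* (4.48), *Six2* (3.33) and *Wt1* (1.74) among the other self-renewal genes. It passed for *Crym* (3.97) and *Tmem100* (3.40) among the cap mesenchyme genes, beside 0.533% of all genes called in that direction. In *Foxc2*, high CHIR of β-catenin KO was above low CHIR in all 3 dates and in CTRL below it in all 3.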

How the results depend on the processing

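The call that *Meox2* was lower in high CHIR in CTRL, α-catenin KO and QCKO held in all alternatives, with log2 differences between −7.18 and −5.67. *Foxc2* in CTRL lay between −3.78 and −2.52, and β-catenin KO against CTRL in high CHIR held for both members (4.70 to 6.43 and 3.03 to 4.32). With 1 library left out, *Foxc2* lay between −3.82 and −3.50 in α-catenin KO and between −4.23 and −3.12 in QCKO and was lost in 3 and 2 fits. Its difference of response between β-catenin KO and CTRL lay between 2.90 and 4.09 and was lost in 7 such fits, with only the groups compared (3.46) and from β-catenin KO replicate 1 alone (3.51), an alternative chosen after seeing the data in which each β-catenin KO group has 1 library. The cause was not tested.

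Signs turned only in differences that were never called. *Meox2* in α-catenin KO against CTRL in high CHIR was −0.045 with a pseudocount of 5, −0.046 after quantile normalization, −0.28 with date as a replicate block, −0.31 by edgeR and −0.30 by DESeq2. *Meox2* in β-catenin KO against CTRL in low CHIR was 0.012 after quantile normalization, 0.038 by edgeR, 0.032 by DESeq2 and 0.68 from replicate 1 alone. The difference of response in α-catenin KO was −0.21 by edgeR and −0.19 by DESeq2 for *Meox2*. With the replicate block, QCKO against CTRL in low CHIR was 0.034 for *Meox2* and −0.091 for *Foxc2*, and *Foxc2* in α-catenin KO against CTRL in high CHIR was 0.021. The block changed no call of a member, and the relative fall of the members stayed at 3.03. Over α-catenin KO and QCKO alone, chosen after seeing the data, it was 2.92, where 36 arrangements of labels cannot pass the threshold.

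With 1 library left out, these differences ranged as follows. The response in α-catenin KO against CTRL was −0.58 to 0.61 for *Meox2* and −1.07 to 0.12 for *Foxc2*, and that in QCKO was −1.08 to 0.11 for *Foxc2*. In low CHIR, α-catenin KO was −0.61 to 0.32 and β-catenin KO −0.38 to 0.21 for *Meox2*, and QCKO −0.18 to 0.54 for *Foxc2*. In high CHIR, α-catenin KO was −0.72 to 0.45 for *Meox2* and −0.78 to 0.40 for *Foxc2*, and QCKO −0.91 to 0.28 for *Foxc2*. *Meox2* was −1.55 to −0.38 in QCKO against CTRL in high CHIR and −0.56 to −0.04 in low CHIR, its response in QCKO against CTRL −1.25 to −0.07, and its response within β-catenin KO −1.45 to −0.56. *Foxc2* was 0.16 to 0.45 for the response within β-catenin KO, and in low CHIR 0.09 to 0.50 in α-catenin KO and 0.03 to 0.44 in β-catenin KO. *Foxc2* did not pass a minimum mean of 100.

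Counts of genes called moved more. They were 761 to 2986 for high against low CHIR in CTRL (1760 in the main setting), 281 to 1186 in α-catenin KO (725), 368 to 1855 in QCKO (814) and 0 to 57 in β-catenin KO (3). The difference of response gave 36 to 400 in β-catenin KO (112). β-catenin KO against CTRL gave 0 to 217 in low CHIR (11) and 240 to 3060 in high CHIR (1757), where fitting only the groups compared gave the lowest. After quantile normalization 4 of 8 places in the order of groups were kept for *Meox2* and 6 for *Foxc2*, and without the β-catenin KO libraries 2 and 1 of the 5 nearest genes.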
